A study of Arabidopsis thaliana with 45 samples.

Results

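Broad stretches of trimethylated histone H3 lysine 27 (H3K27me3) in wild-type Arabidopsis thaliana seedlings are described here: 81 domains of 2000 bp or more. They were chosen by the Ctrl peak lists themselves. Bases that peaks covered in all 3 H3K27me3 libraries of the Ctrl group on chromosomes 1 to 5 were kept, stretches separated by 200 bp or less were joined, and joined regions of 2000 bp or more were retained. Of 6986 joined regions, 81 (1.16%) met that width, and they held 4.01% of the bases of all regions. Another 3794 regions were at least 500 bp but under 2000 bp wide and 3111 were narrower than 500 bp. Because Ctrl values picked the domains, comparisons with Ctrl in H3K27me3 are given as descriptions without a test.

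H3K27me3 is deposited by Polycomb repressive complex 2 (PRC2) and marks genes that are kept silent, in seedlings many regulators of flowers, seeds and organ identity among them. FERTILIZATION INDEPENDENT ENDOSPERM (FIE) is the WD40-repeat subunit of plant PRC2 and is needed for its methyltransferase activity. TARGET OF RAPAMYCIN (TOR) is the protein kinase that couples nutrient and energy status to growth, and AZD8055 and Torin2 are inhibitors of its kinase activity. In plants, H3K9me2 is a separate mark, typical of silenced transposons and repeats.

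The chromatin immunoprecipitation data comprised 27 H3K27me3 libraries in 9 groups of 3 and 6 H3K9me2 libraries in 2 groups of 3, and RNA was sequenced in 12 libraries. The aerial parts of 2-week-old seedlings grown on solid half-strength medium gave 4 groups for H3K27me3 and RNA. These were Ctrl (the Col-0 wild type), amiR-fie-es (an artificial microRNA against FIE under oestradiol control, with 10 mM oestradiol as the labels write it, from the start of growth), GFP-FIE/fie (a fie mutant carrying wild-type FIE fused to GFP) and SSTS/AAAA/fie (the same mutant background with a phosphorylation-site mutant of that fusion). Seedlings of 7 days in liquid medium gave the other groups: Col-0 and tor-es, in which 10 mM oestradiol from day 3 was used to deplete TOR, and Col-0 with DMSO, 10 µM AZD8055 or 10 µM Torin2 added on day 4 for 3 days. The GFP-FIE and SSTS/AAAA groups thus share the fie mutation, and all other groups carry the endogenous FIE gene. The labels do not say whether wild types received oestradiol, how many independent lines stood behind each construct, or whether replicates were separate cultures, so the p-values measure the spread between these libraries.

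The targeted gene followed the labels. FIE RNA was 15.7, 18.3 and 18.6 CPM (counts scaled to a common library total) in Ctrl and 9.10, 8.79 and 8.81 in amiR-fie-es, a log2 change of -0.98 (SE 0.07, edgeR adjusted p = 4.06e-16). In GFP-FIE it was 25.2, 27.6 and 23.8 CPM and in SSTS/AAAA 12.2, 11.7 and 11.4, a log2 difference of -1.11 (SE 0.06, edgeR adjusted p = 8.28e-20), so the 2 transgenic groups did not carry equal amounts of FIE RNA. Reads from the endogenous and the introduced FIE copy cannot be told apart in these counts. RNA libraries held 28866845 to 34543091 counts on genes. Across the H3K27me3 lists, peaks covered 0.859 to 0.911 Mb in amiR-fie-es, 2.41 to 2.45 Mb in SSTS/AAAA, 5.28 to 5.67 Mb in GFP-FIE and 6.05 to 6.68 Mb in Ctrl. They covered 4.28 to 4.51 Mb in Col-0, 2.83 to 3.19 Mb in tor-es, 7.88 to 8.22 Mb in DMSO, 6.64 to 7.09 Mb in AZD8055 and 6.25 to 6.78 Mb in Torin2. Read depth behind the peak lists is unknown, and every covered share depends on how much was called in its library.

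The domains were 2006 to 2924 bp wide, with a median of 2215 bp. Chromosomes 1 to 5 held 16, 10, 25, 9 and 21 of them, and chromosome 3 held 30.9% of the wide domains against 18.9% of all regions. They stood apart from other marked stretches: 8 of 81 (9.88%) had another Ctrl region within 1000 bp, against 29.2% of the regions of 500 to under 2000 bp and 45.1% of the narrow ones. This spacing is in part set by joining nearby stretches. Protein-coding genes with at least 50% of their length inside a domain numbered 78 in 70 domains, and 8 domains held 2 or more such genes. No protein-coding gene touched 7 domains, and no annotated gene touched 1. Just inside the width limit lay chr3:11122307-11124312 (2006 bp), where SSTS/AAAA peaks covered 23.4% of bases on average, and the WRKY12 domain (2008 bp), where they covered 72.9%. Just outside it lay chr5:3702962-3704942 (1981 bp) with 80.7%, chr5:5945486-5947484 with 73.7% and chr2:16248948-16250946 with 45.9%. In amiR-fie-es the last had no peak, and the first was covered at 26.9%.

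In amiR-fie-es most domain bases had no called peak, and in SSTS/AAAA more than 60% still had one; FIE RNA was lower than in the control in both. Peaks covered 99.5%, 99.4% and 99.0% of domain bases in the 3 Ctrl libraries, the values that chose them. In amiR-fie-es they covered 27.7%, 26.4% and 27.1%, a difference from Ctrl of -72.2 percentage points (range over the 9 pairs of single libraries -73.1 to -71.3). Wild-type GFP-FIE in the fie mutant gave 91.7%, 95.2% and 93.4%, which is -5.89 points from Ctrl (pair range -7.83 to -3.79). The amiR-fie-es libraries lay far below those of every other group. GFP-FIE libraries lay below Ctrl too, which the choice of domains on Ctrl in part sets.

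SSTS/AAAA libraries covered 61.2%, 64.7% and 60.7% of domain bases (62.2% ± 2.16, SD, n = 3) against 93.4% ± 1.77 (SD, n = 3) in GFP-FIE. The difference was -31.3 percentage points (pair range -34.5 to -27.0), leaving 66.6% of the GFP-FIE share. All SSTS/AAAA libraries lay below all GFP-FIE libraries (exact two-sided permutation test, p = 0.1, adjusted over 5 comparisons 0.1). That is the smallest p that 3 against 3 libraries allow, so no comparison of covered shares could pass 0.05.

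Seedlings depleted of TOR or given a TOR inhibitor had lower shares than their controls, by different amounts. In Col-0 seedlings peaks covered 84.8%, 83.7% and 82.8% of domain bases and in tor-es 69.9%, 63.5% and 64.1%, a difference of -18.0 points (pair range -21.4 to -12.9, exact permutation p = 0.1, adjusted 0.1). DMSO libraries covered 91.9%, 88.0% and 89.6%, and AZD8055 libraries 61.8%, 60.7% and 60.6%, a difference of -28.8 points (pair range -31.2 to -26.2, exact permutation p = 0.1, adjusted 0.1). Torin2 libraries covered 82.3%, 82.6% and 81%, which is -7.86 points from DMSO (pair range -10.9 to -5.40, exact permutation p = 0.1, adjusted 0.1). In none of these comparisons did treated and control libraries overlap.

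**Figure D1:**
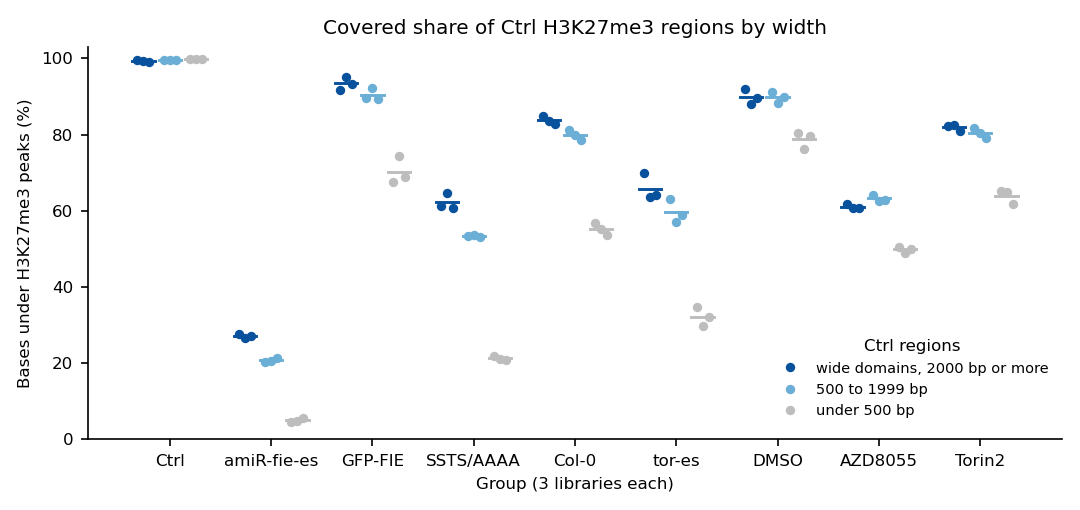
Percentage of the bases of Ctrl regions that H3K27me3 peaks covered, for each of the 27 libraries (points) with a line at the group mean (n = 3). Colours give the 81 wide domains, the regions of 500 to under 2000 bp and those under 500 bp. In the wide domains the amiR-fie-es libraries sit at 26.4 to 27.7%, and SSTS/AAAA, tor-es and AZD8055 each sit below their own control without overlap.

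AZD8055 and Torin2, both given at 10 µM for 3 days, differed in these domains by more than their libraries varied. Torin2 libraries covered 82.0% ± 0.88 (SD, n = 3) and AZD8055 libraries 61.0% ± 0.67 (SD, n = 3) of the domain bases. Torin2 minus AZD8055 was 20.9 points (pair range 19.1 to 22.0, exact permutation p = 0.1, adjusted 0.1), and this was the 1 pair of inhibitors compared. Of the 81 domains, 80 had a higher mean share in Torin2 and 70 were higher in every Torin2 library than in every AZD8055 library. The same counts were not made over all Ctrl regions. The exception was AT3G61720, at 96.4%, 97.6% and 93.7% in AZD8055 and 92.1%, 86.4% and 91.1% in Torin2. Torin2 minus AZD8055 was also above 0 without overlap elsewhere: 17.2 points in the regions of 500 to under 2000 bp and 16.8 points over all Ctrl regions. Over the whole genome the covered lengths of the 2 inhibitors overlapped.

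With the peaks as deposited, the change in covered share of the wide domains lay above that of regions narrower than 500 bp, without overlap, in 4 of these 5 comparisons. The change in wide domains minus that in narrow regions was 17.8 points for SSTS/AAAA against GFP-FIE (pair range 14.7 to 22.9), 5.04 for tor-es against Col-0 (2.94 to 7.04), 6.92 for Torin2 against DMSO (5.24 to 9.23) and 6.79 for Torin2 against AZD8055 (5.29 to 8.58). Each had an exact permutation p = 0.1, adjusted 0.125, so none passed. For AZD8055 against DMSO the same quantity was 0.123 points (pair range -1.23 to 1.83, exact permutation p = 0.9). The contrast depended on the peak threshold: with peaks at −log10 q of 5 or more it became -1.43 for SSTS/AAAA, -8.81 for tor-es and -3.26 for AZD8055. With the same number of top peaks in every library it became -23.0, -13.7 and -23.2 in that order, and -0.698 for Torin2 against DMSO.

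A domain was called lost where peaks covered at least 50% of its bases in 3 of 3 control libraries and in 0 of 3 case libraries. By that rule 11 of 81 domains (13.6%) were lost in SSTS/AAAA against GFP-FIE, beside 21% of all 6986 regions. It was 18 without SSTS/AAAA replicate 2, and was 0 where 25% and 38 where 75% of bases was the limit. In tor-es 4 domains (4.94%) were lost against Col-0, beside 7.13% of all regions, and 8 without tor-es replicate 1, 7 without tor-es replicate 3, 0 at the 25% limit and 11 at the 75% limit. AZD8055 lost 10 domains (12.3%) against DMSO, beside 11.8% of all regions, so its share in wide domains was near the background, with 15 lost without AZD8055 replicate 1, 1 at the 25% limit and 44 at the 75% limit. Torin2 lost 0 against DMSO, beside 2.82% of all regions. Against AZD8055, Torin2 lost 0, beside 0.172% of all regions. In the other direction, 10 domains were covered by at least 50% in 3 of 3 Torin2 and 0 of 3 AZD8055 libraries. That count was not made over all regions. As a description, amiR-fie-es lost 59 domains (72.8%) against Ctrl, beside 81.1% of all regions, and GFP-FIE lost 0, beside 6.11% of all regions.

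The mean share was lower than in the control in 80 of 81 domains in SSTS/AAAA, 78 in tor-es, 80 in AZD8055 and 73 in Torin2 against DMSO. Every case library lay below every control library in 70, 39, 78 and 34 domains in the same order. These counts were not made over all Ctrl regions, so they do not set the wide domains apart. The covered share of all Ctrl regions differed from the control by -39.1, -20.7, -27.1 and -10.3 points in that order. Median differences over the 81 domains were -30.0, -14.7, -30.4 and -7.39 points. In amiR-fie-es the domains ranged from 0% to 99.7% covered around a median of 22.3%, with 12 domains at 50% or more and 20 under 10%. The spread was narrower in SSTS/AAAA (23.4% to 100%, median 61.9%), and no domain lost all its peaks there.

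**Figure D2:**
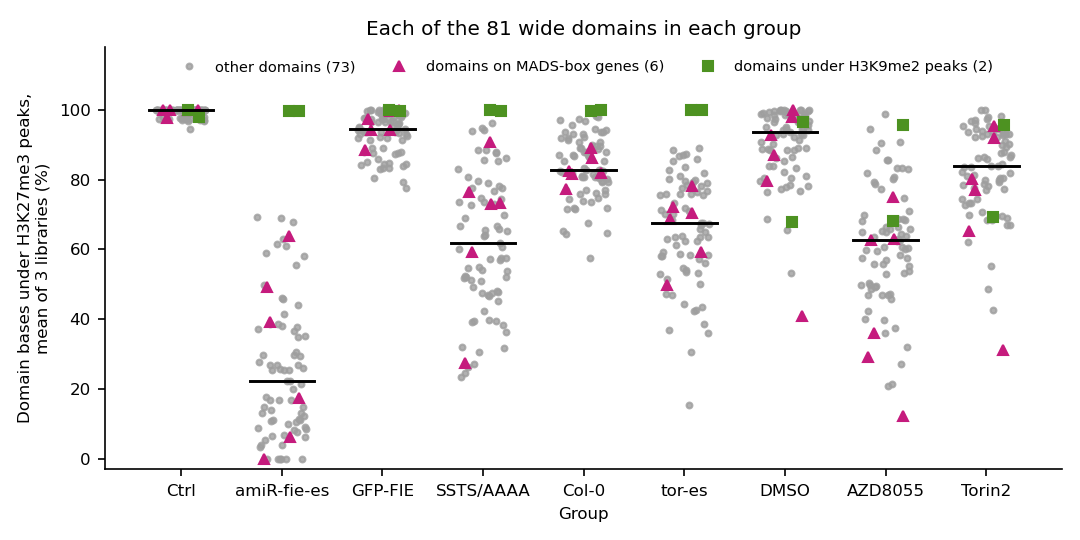
Covered percentage of each of the 81 wide domains (points) in each H3K27me3 group, as the mean of 3 libraries, with the median over domains. The amiR-fie-es domains run from 0% to 99.7% with a median of 22.3%, while the SSTS/AAAA domains run from 23.4% to 100% with a median of 61.9%.

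The domains had a similar order of covered share in several groups, untreated ones included. Over the 81 domains the Spearman correlation of the covered share was 0.74 between amiR-fie-es and SSTS/AAAA, 0.64 between SSTS/AAAA and tor-es, 0.64 between tor-es and AZD8055 and 0.46 between amiR-fie-es and AZD8055. Between Col-0 and DMSO, which had no TOR depletion or inhibitor, it was 0.57, in the same range. Without the pair of domains that carried H3K9me2 peaks, the first was 0.72 over 79 domains. Neither the Ctrl peak fold (Spearman 0.06) nor the width (-0.01) ordered the domains by what amiR-fie-es kept. These are descriptions across domains, which share libraries, depth and sequence composition.

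**Figure D3:**
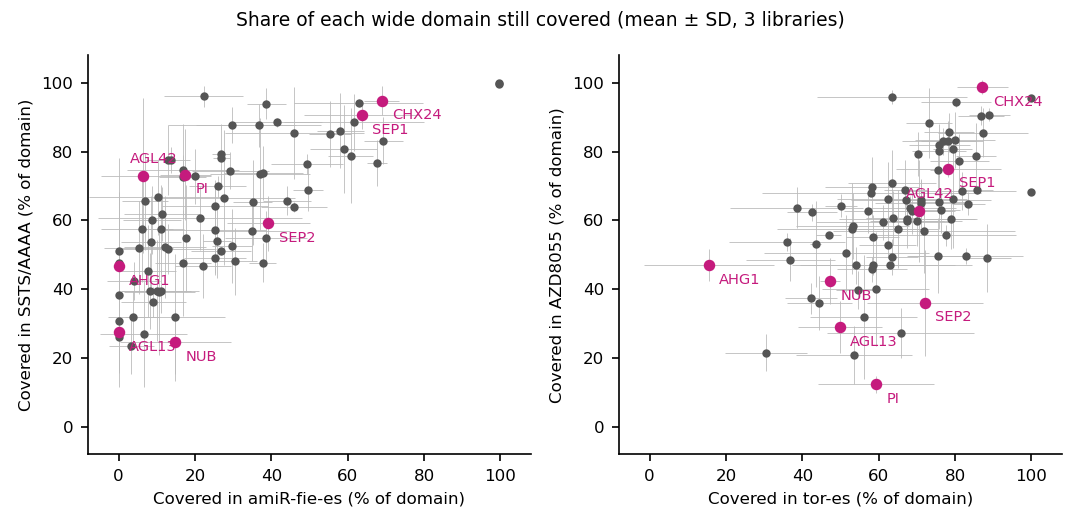
Covered percentage of the 81 wide domains (points) in pairs of groups, each axis the mean of 3 libraries, with named domains marked. The domains of amiR-fie-es and SSTS/AAAA follow a common order (Spearman 0.74), and CHX24 lies high while AGL13 and AHG1 lie low in amiR-fie-es.

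Peak fold is the enrichment over the background model that the authors' peak caller gave each peak, and it describes peaks within a list. The median over domains of the highest fold per domain was 4.41 to 4.53 in the Ctrl libraries, 4.57 to 4.70 in amiR-fie-es and 4.03 to 4.17 in AZD8055, within 4.03 to 4.82 over all 27 libraries. Domains without a peak have no fold and are not in these medians. In Ctrl, whose lists chose the domains, peaks inside them had a median fold of 4.35 to 4.48, against 3.41 to 3.52 for the other peaks. In amiR-fie-es it was 4.39 to 4.42 inside against 4.63 to 4.73 elsewhere. Inside the domains it was 4.21 to 4.39 in GFP-FIE and 4.12 to 4.37 in SSTS/AAAA, up to 4.06 in Col-0 and 3.78 to 3.82 in tor-es. It was 3.74 to 3.95 in DMSO, 3.34 to 3.56 in AZD8055 and 3.38 to 3.51 in Torin2, so tor-es and both inhibitors lay below their controls without overlap. Peaks elsewhere were also lower in tor-es (3.71 to 3.77 against 3.80 to 3.84 in Col-0). The same held for Torin2 (3.02 to 3.06 against 3.08 to 3.19 in DMSO), while AZD8055 (3.13 to 3.21) overlapped DMSO. These medians are over peaks, and the domains held 122 to 138 peaks in DMSO and 160 to 173 in AZD8055. The longest unbroken covered stretch had a median of 2193 to 2206 bp in Ctrl, 2019 to 2100 bp in GFP-FIE, 1079 to 1179 bp in SSTS/AAAA and 405 to 454 bp in amiR-fie-es. It was 1436 to 1744 bp in Col-0 and 1013 to 1102 bp in tor-es, and 1709 to 2006 bp in DMSO, 1371 to 1442 bp in Torin2 and 905 to 924 bp in AZD8055.

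The Ctrl libraries set the domain ends, so lower edges in the other groups are in part fixed by that choice. Coverage was lower at the edges of the domains than at the centre in all of them, most so in SSTS/AAAA. There the middle 20% of each domain was covered at 68.5% and the outer 10% on each side at 40.1%, a centre-to-edge difference of 28.4 points (library range 20.0 to 32.8). In GFP-FIE the difference was 12.6 points, and in tor-es 19.7 (69.9% against 50.2%) beside 13.6 in Col-0. The inhibitor experiment gave smaller values, 5.54 points in AZD8055, 5.10 in DMSO and 9.18 in Torin2. The AZD8055 profile had low ends (43.9% and 47.6% in the outermost of 20 bins), shoulders (69.0% in the third bin) and a dip at the centre (55.1%), which the centre-to-edge difference does not show. In amiR-fie-es it was 8.48 points, and in Ctrl -0.935, where the domain ends were set.

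**Figure D4:**
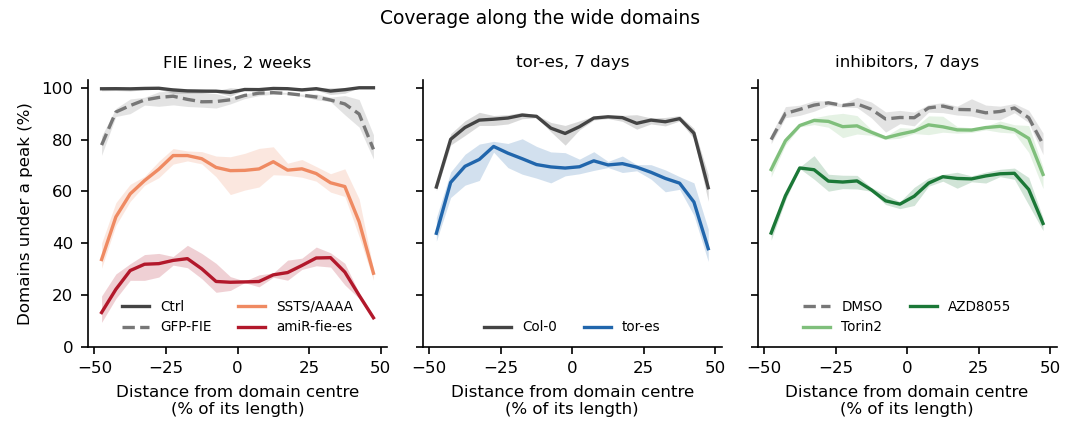
Percentage of bases covered by H3K27me3 peaks along the 81 wide domains, in 20 equal bins from the left to the right end, as the mean of 3 libraries per group. The SSTS/AAAA line lies between 28.4% in the last bin and 73.8% at its highest, and the AZD8055 line is at 43.9% in the first bin, 69.0% in the third and 55.1% in the tenth. Shading gives the range over libraries.

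Applied to each group's own libraries, the same width rule found 50 domains in GFP-FIE, of which 41 (82%) overlapped a Ctrl wide domain, and 6 in SSTS/AAAA. It found 2 in amiR-fie-es, 8 in Col-0 and 3 in tor-es. In the inhibitor groups it found 105 in DMSO, 44 in AZD8055 and 54 in Torin2. Of these, 40 (38.1%), 5 (11.4%) and 19 (35.2%) overlapped a Ctrl wide domain. Overlap with narrower Ctrl regions was not counted.

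The widest domain, chr3:7178195-7181118 (TAIR10, 2924 bp), lay on AT3G20557 and AT3G20555. Peaks covered 97.2%, 100% and 95.2% of it in GFP-FIE and 38.3%, 56.6% and 45.2% in SSTS/AAAA. In amiR-fie-es they covered 30.4%, 19.4% and 16.6%. The inhibitor groups gave 81.7%, 83.4% and 76.0% in DMSO, 41.5%, 48.5% and 47.3% in AZD8055 and 69.1%, 70.8% and 65.1% in Torin2. It was one of the 10 domains lost in AZD8055. The next widest, chr5:1014312-1017225 (2914 bp) on AT5G03820 and AT5G03810, kept 99.0%, 90.5% and 92.5% in SSTS/AAAA and 44.5%, 36.3% and 35.1% in amiR-fie-es.

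NAC058, a NAC transcription factor gene, lay in chr3:6318743-6321512 (2770 bp). Its domain was covered at 26.7%, 36.4% and 55.7% in SSTS/AAAA, 12.7%, 17.4% and 0% in amiR-fie-es and 18.0%, 27.7% and 18.9% in AZD8055. Already in DMSO it was at 54.5%, 49.7% and 55.8%, lower than the median domain of that group (93.7%). NUB (NUBBIN), a zinc-finger gene of stamen and carpel growth, lay in chr1:4598020-4600625 (2606 bp). Its shares of 86.8%, 76.5% and 100% in GFP-FIE and 35.2%, 21.7% and 17.0% in SSTS/AAAA did not overlap, and the domain was lost in SSTS/AAAA and in AZD8055 (37.4%, 49.8% and 39.8%). The rest of the 10 widest lay on AT3G55590, SEP2, AT3G19070, ABCG9, AT2G34360 and AT5G25300.

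MADS-box genes, which encode floral and other organ regulators, held 6 wide domains, a grouping made after their values were seen. PI (PISTILLATA), which specifies petals and stamens, lay in chr5:6828663-6830967 (2305 bp). Its share was 100%, 99.9% and 100% in GFP-FIE, 58.4%, 77.8% and 83.8% in SSTS/AAAA and 17.4%, 24.1% and 10.8% in amiR-fie-es. In the inhibitor experiment the PI domain was the lowest of the DMSO group, at 44.9%, 39.6% and 38.2%, and was 15%, 11% and 10.8% in AZD8055 and 36.7%, 26.6% and 30.4% in Torin2. PI could not be called lost there, since DMSO lay under 50%.

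SEP1 and SEP2 (SEPALLATA) act with the other floral MADS factors, and in amiR-fie-es their domains kept more than that of PI. The SEP1 domain, chr5:5151890-5154135 (2246 bp), was covered at 90.1%, 86.9% and 95.1% in SSTS/AAAA and 46.4%, 73.5% and 71.3% in amiR-fie-es. The SEP2 domain, chr3:464800-467511 (2712 bp), was covered at 97.2%, 95.4% and 89.9% in GFP-FIE, 53.8%, 55.4% and 68.4% in SSTS/AAAA and 36.0%, 30.3% and 51.4% in amiR-fie-es. SSTS/AAAA lay below GFP-FIE in every library of both genes.

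AGL13, another MADS-box gene, lay in chr3:22618349-22620612 and had no peak in any amiR-fie-es library. It was covered at 85.0%, 91.5% and 88.7% in GFP-FIE and 14.9%, 31.5% and 36.1% in SSTS/AAAA, and at 20.5%, 31.6% and 35.1% in AZD8055 against 92.7%, 77.2% and 68.7% in DMSO. AGL42, in chr5:24964739-24966773, was at 0%, 0% and 19% in amiR-fie-es and at 47.0%, 86.5% and 85.5% in SSTS/AAAA, the first library apart from the other 2. TT16, a seed coat regulator in chr5:7835783-7837963, was at 55.8%, 53.6% and 38.4% in amiR-fie-es.

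Domains with no peak in any amiR-fie-es library numbered 7: those of AT2G15840 (a pseudogene), GATA13, CDG1, AGL13, AT5G40275 (a noncoding RNA), AT5G48270 and AHG1. AHG1, a protein phosphatase gene of abscisic acid signalling in seeds, also had the lowest share of all domains in tor-es: 33.6%, 12.8% and 0% against 64.2%, 71.3% and 67.0% in Col-0, in chr5:21025522-21027646. The 4 domains lost in tor-es were those of AT2G15840, AT4G21020, AHG1 and WRKY12, a WRKY factor of pith cell walls (49.6%, 41.2% and 36.9% against 92.0%, 75.2% and 75%). The 11 lost in SSTS/AAAA included NUB, AT2G34360, AT2G15840, AT5G48270 and AT5G40275. The 10 lost in AZD8055 were those of AT3G20557, NUB, AT4G32230, AT4G11580, AT5G48270, AGL13, AT3G62710, SAP (STERILE APETALA, of flower development), GATA13 and AT3G20760. NUB, AGL13 and AT5G48270 were lost in both, 27.3% of the SSTS/AAAA set and 30% of the AZD8055 set, and AT2G15840 in both SSTS/AAAA and tor-es.

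At the other end, 7 domains were covered by at least 50% in all 3 amiR-fie-es libraries: those of CHX24, CYP78A5, AT3G49770, AT5G16700, AT5G06380 and the pair under H3K9me2 described next. CHX24, a cation/proton exchanger gene, kept 64.3%, 69.0% and 73.3%, and CYP78A5 (KLUH), a cytochrome P450 that promotes organ growth, 65.2%, 55.2% and 53.8%. By Ctrl peak fold the 5 highest domains were the gene-free chr3:13590250-13592431 (8.09), AT5G06380 (6.53), AT5G16700 (6.45), MUTE (6.12), a factor of stomatal fate, and WIP4 (6.03). Domains that went against the direction of their comparison were RLP20, BGLU31 and chr3:13590250-13592431 in tor-es, and the last one in AZD8055. For Torin2 against DMSO 7 did so: AT5G54700, SAP, BGLU31, AT5G06380, GH3.1, WRKY12 and chr3:13590250-13592431.

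H3K9me2 peaks covered 2 of the 81 domains, and the other 79 had none in any of the 6 libraries. These were chr3:13590250-13592431, which no annotated gene touched, and chr3:14200927-14203440, on the noncoding RNA gene AT3G06365. Over all domains H3K9me2 covered 2.55% of bases on average in Col-0 and 2.54% in tor-es (difference -0.0091 points, exact permutation p = 0.1). Over all Ctrl regions of any width it covered 0.659% and 0.629% of bases, and the regions under H3K9me2 peaks were not counted there. The 2 domains under H3K9me2 peaks stood apart in H3K27me3 as well. The first was covered at 100%, 99.6% and 99.6% in amiR-fie-es, and at 68.1%, 67.9% and 67.6% in DMSO against 68.5%, 68.0% and 68.2% in AZD8055 and 67.7%, 71.5% and 68.1% in Torin2. The second had the lowest Ctrl fold of all (2.61) and was covered at 97.9% on average in Ctrl (93.8% in its lowest library) and at 99.4% or more in every library of amiR-fie-es, GFP-FIE, SSTS/AAAA, Col-0 and tor-es.

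RNA from the genes inside the domains was measured in the 4 FIE groups. The 78 wide-domain genes were low in the wild type. Their median was 0.0347 RPKM (CPM per kilobase of gene length) in Ctrl against 4.07 over all 26700 protein-coding genes counted. Of the 77 in the count table, 70 (90.9%) lay under 1 RPKM, against 36.6% of all. In amiR-fie-es 66 and in SSTS/AAAA 63 lay under 1 RPKM, and the highest level was 5.51 RPKM in Ctrl and 78.8 RPKM in SSTS/AAAA. Only 23 of the 78 had enough counts to be tested. Another 54 fell below the count minimum, with a median of 10.5 and at most 92 counts over the 12 libraries together, and 1 was not in the count table. The 23 include genes that passed through the group where they were high, so the counts of calls do not stand for all 78. Whole aerial tissue was used, so fewer cells of a type cannot be told apart from less RNA per cell.

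Against Ctrl, 13 of the 23 genes rose and 3 fell in amiR-fie-es, where 29.3% of all genes tested rose and 30% fell. In SSTS/AAAA against GFP-FIE 17 rose and 3 fell, where 33.3% of all genes rose and 32.3% fell. In GFP-FIE against Ctrl 1 rose and 1 fell, where 14.4% of all rose and 15.3% fell. Of the genes that reached the minimum in all 3 control libraries, 5 of 11 rose and 3 fell in amiR-fie-es, and 7 of 12 rose and 3 fell in SSTS/AAAA. In neither Ctrl nor GFP-FIE did a library reach it for SEP2, NAC058, AT3G49770, AT4G00160, AT4G10370, AT1G27860 and MCT1. These 7 were tested only because amiR-fie-es or SSTS/AAAA was high, and AT1G53690 mainly because GFP-FIE was, so their values are given without a p. AT3G04220, among the 17 rises in SSTS/AAAA, reached the minimum in 2 GFP-FIE and 3 SSTS/AAAA libraries, and passed only with the latter. The GFP-FIE against Ctrl comparison shares libraries with both others.

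PI had the largest fitted rise in amiR-fie-es and rose in SSTS/AAAA as well. It was 1.04, 1.33 and 1.09 CPM in Ctrl and 27.9, 29.0 and 29.2 in amiR-fie-es, a log2 change of 4.63 (SE 0.09, edgeR adjusted p = 2.94e-37). In GFP-FIE it was 1.54, 1.02 and 1.31 CPM and in SSTS/AAAA 86.1, 86.8 and 85.9, a log2 change of 6.06 (SE 0.07, edgeR adjusted p = 3.48e-45). PI RNA was higher in SSTS/AAAA than in amiR-fie-es, whereas more of its domain was without a peak in amiR-fie-es, and the difference between the 2 fold changes was not tested. Per gene length, it reached 26.2 RPKM in amiR-fie-es and 78.8 RPKM in SSTS/AAAA, the highest of the wide-domain genes in both groups.

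SEP2 and SEP1 were higher in both comparisons, with larger log2 changes in SSTS/AAAA, a difference that was not tested. SEP2 went from 0.144, 0.184 and 0.0363 CPM in Ctrl to 0.811, 0.916 and 0.985 in amiR-fie-es (log2 change 2.86, SE 0.38). From 0.108, 0.0352 and 0.262 CPM in GFP-FIE it went to 16.4, 18.3 and 17.1 in SSTS/AAAA (log2 change 6.98, SE 0.19). SEP1 rose from 0.970, 1.22 and 0.945 CPM to 2.07, 2.23 and 2.05 in amiR-fie-es (log2 change 1.02, SE 0.18, edgeR adjusted p = 7.00e-06). Against GFP-FIE (0.394, 0.106 and 0.412 CPM) it rose to 12.3, 12 and 12.2 in SSTS/AAAA (log2 change 5.32, SE 0.18, adjusted p = 2.86e-28), and it was the gene that fell in GFP-FIE against Ctrl (log2 change -1.78, SE 0.30, adjusted p = 4.67e-06). SEP1 overlaps other annotated genes, so its reads could be split.

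AGL42, a MADS-box gene of floral organ senescence and abscission, rose in both comparisons. It was 0.431, 0.516 and 0.291 CPM in Ctrl against 3.91, 4.12 and 4.10 in amiR-fie-es, and 0.323, 0.599 and 0.337 in GFP-FIE against 3.66, 3.24 and 4.28 in SSTS/AAAA. The log2 changes were 3.28 (SE 0.21, edgeR adjusted p = 1.48e-17) and 3.14 (SE 0.21, adjusted p = 5.56e-17). AT1G02190 rose to 43.8, 46.3 and 45.5 CPM in SSTS/AAAA from 0.717, 0.775 and 0.935 in GFP-FIE (log2 change 5.80, adjusted p = 1.43e-38), and by 1.93 in amiR-fie-es. AT3G49770, one of the 7 domains kept in amiR-fie-es, had 2 counts in Ctrl and 41 in amiR-fie-es summed over libraries. It had 1 count in GFP-FIE and 523 in SSTS/AAAA. This gene was tested only because amiR-fie-es or SSTS/AAAA was high, so no interval is given.

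PEPC1, a phosphatase gene, rose by 1.48 in amiR-fie-es and 3.26 in SSTS/AAAA on the log2 scale (adjusted p = 1.74e-25 in the second). Among the genes low in both controls, the log2 changes were 2.00 and 2.88 for NAC058, 1.75 and 3.01 for AT4G00160 and 1.56 and 2.36 for MCT1, in amiR-fie-es and SSTS/AAAA in that order, and 2.99 in SSTS/AAAA for AT4G10370. AT1G27860 had a log2 change of 1.64 (SE 0.67) in amiR-fie-es, and 193 counts in SSTS/AAAA against 3 in GFP-FIE. The last of the 13 rises, outside the naming rule, was BOP1 (BLADE-ON-PETIOLE1), at 1.03 and 1.48. AT4G00160, AT1G27860 and MCT1 in amiR-fie-es lost their call when 1 library was left out.

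NUB rose in amiR-fie-es (log2 change 1.08, SE 0.31, adjusted p = 0.00227) and had a log2 difference of -0.27 in SSTS/AAAA that did not pass (adjusted p = 0.463), although its domain was lost in SSTS/AAAA. CYP78A5 fell in amiR-fie-es (log2 change -0.38, SE 0.08, adjusted p = 6.23e-05) and rose in SSTS/AAAA (0.74, SE 0.07, adjusted p = 2.5e-13). Its levels were 9.45, 11.4 and 9.34 CPM in Ctrl, 8.20, 7.69 and 7.36 in amiR-fie-es, 10.7, 11.6 and 11.4 in GFP-FIE and 18.9, 18.5 and 18.9 in SSTS/AAAA. WRKY12 likewise fell in amiR-fie-es (-0.90, adjusted p = 0.00742) and rose in SSTS/AAAA (0.57, adjusted p = 0.0422). Its first call was lost without Ctrl replicate 2 (adjusted p = 0.0844). MUTE fell in both, by 0.45 (adjusted p = 0.0157) and 1.07 (adjusted p = 2.08e-06), the first lost without amiR-fie-es replicate 3 (adjusted p = 0.109). AT1G53690 had log2 changes of -2.36 (SE 0.44) in SSTS/AAAA and 1.12 in GFP-FIE against Ctrl, and DESeq2 did not call the second. AT3G21210 fell in SSTS/AAAA (-0.76, adjusted p = 0.00193).

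**Figure D5:**
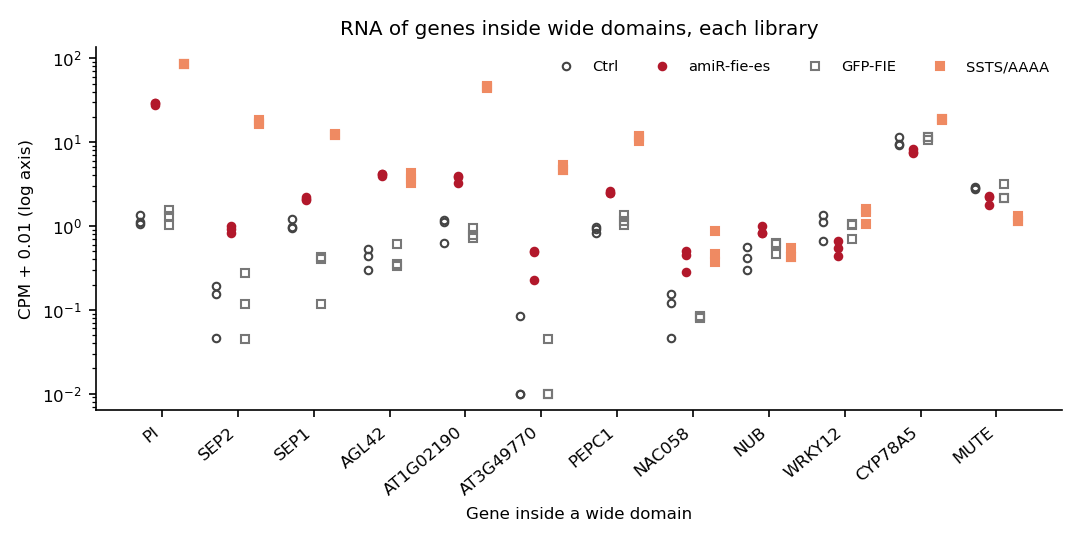
RNA of named wide-domain genes in CPM (log axis), 1 point per library, for each of the 4 groups. PI goes from 1.04 to 1.33 CPM in Ctrl to 85.9 to 86.8 CPM in SSTS/AAAA, and the amiR-fie-es libraries lie between.

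Split by whether the domain was lost, counts are given for the genes that reached the minimum in all 3 control libraries. In amiR-fie-es, 3 of 6 such genes in lost domains rose and 2 fell, and 2 of 5 in domains not lost rose and 1 fell, where 29.3% of all genes tested rose and 30% fell. In SSTS/AAAA, 1 of 3 in lost domains rose and 0 fell, and 6 of 9 in domains not lost rose and 3 fell, where 33.3% of all rose and 32.3% fell. These numbers are too small to set the 2 kinds of domain apart, and no test was made.

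Of 149 genes in 10 lists, 4 (2.68%) were wide-domain genes, beside 78 of 27432 protein-coding genes (0.284%). They were PI, SEP1 and SEP2 of 13 floral organ MADS genes and NUB of 20 boundary and polarity genes. Ctrl peaks covered at least 50% of the length of 38 listed genes (25.5%), beside 7.79% of all protein-coding genes, among them 6 of the 13 floral genes, 9 of the 20 boundary genes, 5 of 14 meristem homeobox genes and 5 of 12 embryo and seed genes. They touched none of 8 housekeeping genes, as of 82.2% of all. All 13 floral organ MADS genes rose in amiR-fie-es (median log2 change 3.68), and 12 rose in SSTS/AAAA (5.32), beside medians of 0.01 and 0.02 over all genes tested. SEP2 among them was tested only because amiR-fie-es or SSTS/AAAA was high. Whether other listed genes passed the count minimum in that way is not given here, so the list counts are descriptions. The counts that follow stand beside 29.3% rising and 30% falling of all genes tested in amiR-fie-es and 33.3% and 32.3% in SSTS/AAAA, and several lists lay near those shares. Of 18 boundary and polarity genes tested, 10 rose and 2 fell in amiR-fie-es and 14 rose and 1 fell in SSTS/AAAA. Of the flowering time genes, 8 rose and 4 fell of 15, then 11 rose and 1 fell. Meristem homeobox genes gave 3 rises and 2 falls of 9, then 8 rises and 1 fall, and embryo and seed genes 1 and 1 of 3, then 2 and 1. Root fate genes gave 1 rise and 2 falls of 4, then 0 and 3. Auxin genes gave 3 rises and 10 falls of 17, then 3 and 11, cytokinin and gibberellin turnover genes 5 and 6 of 15, then 4 and 7, and TCP genes 4 and 6 of 13, then 4 and 5. Housekeeping genes gave 5 rises and 1 fall of 8, then 1 and 5.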

How the data were processed

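The wide domains, the gene lists and the tests were chosen with earlier results of these data known. Chromatin immunoprecipitation used antibodies to H3K27me3 and H3K9me2. Per the submitters' processing notes, the tools were BWA 0.7.15-r1142, HISAT2 2.1.0, SAMtools 1.6, MACS2 (no version given), featureCounts in Subread 1.5.3, Trimmomatic 0.36 and FastQC 0.11.5. The notes name the builds TAIR10 and hg19, and the peak lists hold Arabidopsis chromosomes. Each deposited peak list is 1 library's and holds, per the file layout, a score, a fold ratio over background and a −log10 p and q for every peak, all the authors' values. Deposited gene counts are whole raw counts; the deposited FPKM table was not used. The count columns named NST were taken as SSTS/AAAA, since the peak lists of that group carry the same name.

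Covered shares are the percentage of domain bases under a library's peaks, and peak lists carry no depth. Groups were compared with exact two-sided permutation tests over 3 against 3 libraries, Benjamini-Hochberg adjusted over 5 comparisons. In these 5, a range over the 9 pair differences is a 90% interval of the difference. Against Ctrl it is a range only. RNA was tested with edgeR 4.0.16 in R 4.3.3 (quasi-likelihood, TMM, all 12 libraries in 1 fit, 20046 genes past the count filter, adjusted p at 0.05) and again with DESeq2 1.42.0. Gene spans came from RefSeq's table, where 31912 of 32678 gene IDs matched. With gene spans shifted by 1000 to 5000 bp, 70 to 101 genes were at least 90% under peaks of all 3 Ctrl libraries, against 390 unshifted. Named domains were the 10 widest, the 5 of highest Ctrl fold and those lost or kept against the majority; named genes were list members and the 10 largest rises and 5 largest falls. The region and RNA steps were tested on simulated data. Replicate numbers did not pair the libraries (correlations of deviations -0.043 to 0.029). No promoter sequence was used here.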

Additional observations from a re-analysis of the deposited data

How the results depend on the processing

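Of 268 summary values recomputed under the alternatives, 219 kept their direction and side of the threshold, 39 moved and 10 reversed, and of 590 values for single domains and genes 528 did, 14 became weaker, 39 moved and 9 reversed. The causes were not tested. The number of wide domains was 168 with a gap of 500 bp, 373 at 1500 bp, 0 at 3000 bp and 250 with 2 of 3 Ctrl libraries. In amiR-fie-es against Ctrl the covered share changed by -74.2 points at 1500 bp, -73.3 with 2 of 3 libraries, -81.6 at −log10 q of 5 or more, -47.0 with the same number of top peaks, and -74.2 without the H3K9me2 domains (added after seeing the data); for GFP-FIE it was -8.79 with 2 of 3 libraries and -1.65 with the same number of top peaks. Wide minus narrow reversed at −log10 q of 5 or more to -1.43 (SSTS/AAAA, exact permutation p = 0.6), -8.81 (tor-es) and -3.26 (AZD8055), with the same number of top peaks to -23.0, -13.7, -23.2 and, for Torin2 against DMSO, -0.698 (exact permutation p = 0.7), and for AZD8055 against regions of 500 to under 2000 bp to -2.26.

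Lost domains numbered 0 at a 25% limit, 38 at 75% and 21 at −log10 q of 5 or more in SSTS/AAAA; 0, 11 and 10, and 2 with top peaks, in tor-es; 1, 44 and, with top peaks, 5 in AZD8055; 5 at 75% in Torin2 against DMSO; and 33 at 25% and 24 with top peaks in amiR-fie-es. RNA calls among wide-domain genes were 6 in amiR-fie-es and 7 in SSTS/AAAA with 90% of the gene inside. In lost domains only (added after seeing the data), they were 10 of 15 genes tested and 1 of 3. For GFP-FIE against Ctrl they were 1 with DESeq2, 4 without a filter, 4 at 200 bp inside and 0 at 90%. The numbers tested under the other settings are not given here. In the main fit 29.3% of all genes tested rose and 30% fell in amiR-fie-es. The shares were 33.3% and 32.3% in SSTS/AAAA, and 14.4% and 15.3% in GFP-FIE against Ctrl. With the same number of top peaks, the AT2G15840 domain reversed in SSTS/AAAA (5.05) and tor-es (8.23), AT4G32230 in AZD8055 (1.41), and AT4G11580, AGL13, GATA13 and AT3G20760 came to 0 there. SEP2 RNA in GFP-FIE against Ctrl, not called, ran from -0.74 to 0.58 when 1 library was left out and was -0.30 without Ctrl replicate 3.

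Leaving out 1 library gave -32.5 to -30.4 points for SSTS/AAAA, -20.0 to -16.8 for tor-es, -29.7 to -27.8 for AZD8055, -8.78 to -6.85 for Torin2, 20.6 to 21.4 for Torin2 against AZD8055, -72.5 to -71.9 for amiR-fie-es and -6.78 to -5.02 for GFP-FIE. Wide minus narrow ran 16.4 to 18.6, 4.30 to 5.84, -0.458 to 0.483, 6.33 to 7.39 and 6.22 to 7.27. Lost counts ran 11 to 18 in SSTS/AAAA, 4 to 8 in tor-es, 10 to 15 in AZD8055, 0 to 1 in Torin2 and 59 to 63 in amiR-fie-es, and RNA calls 14 to 17, 19 to 21 and 1 to 3. The H3K9me2 difference ran -0.01 to -0.0078. With a replicate block the RNA calls were 16, 20 and 3 and the covered share differences were -31.3, -18.0, -28.8, -7.86 and 20.9 (smallest sign-flip p 0.25); the numbers do not pair the libraries. Peak lists carry no depth, so a domain without a peak is not shown to lack the mark.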
